A study of Mus musculus with 37 samples.

Results

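The genes described here encode nuclear subunits of the oxidative phosphorylation complexes, together with a few assembly factors that share their symbols. Members were every probe whose symbol in the array annotation begins with Nduf, Uqcr, Atp5 or Cox4 to Cox8, or is Sdha, Sdhb, Sdhc, Sdhd or Cyc1. On the first array version 76 of 24613 probes met this rule, and 65 of them were detected (detection p below 0.05) on 2 or more of 22 arrays. They stood for 59 of 66 member genes. On the second version 77 of 25697 probes met it, 67 were detected on 2 or more of 15 arrays, and these stood for 60 of 66 genes. The 59 genes were 23 of complex I, 3 of complex II, 6 of complex III, 13 of complex IV, 10 of complex V and 4 complex I assembly factors (Ndufaf1, Ndufaf4, Ndufaf5 and Ndufaf7). The 60 were 25, 3, 7, 12, 9 and the same 4. Atp5j, Cox7b2, Cox8b, Ndufs1 and Uqcrq did not pass on either version, Ndufab1 and Ndufb7 passed on the second version alone, and Cox4i2 on the first alone. Sdha was not among the annotated genes analysed here.

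The study exchanged the genome of mouse zygotes, blastomeres or oocytes for that of tail tip fibroblasts and measured RNA on single-colour Illumina bead arrays. In every nuclear transfer (NT) embryo tested here the fibroblast nucleus was therefore carried by oocyte-derived or embryo-derived cytoplasm. Fibroblasts came from agouti 129xB6 F1 mice, embryos were grown in KSOM medium, and neither the strain of the embryos nor the number pooled per array was given in the sources used here. The first version held 3 samples each of zygotes at M phase, zygotes at interphase and tail tip fibroblasts. It held 2 samples each of 2-cell controls and cleavage-inhibited embryos (still of 1 cell at 2-cell timing), both about 22 to 24 h after the first mitosis, and of anaphase NT and prometaphase NT embryos 22 to 24 h after transfer. The last 2 names give the mitotic stage at which the zygote received an interphase fibroblast nucleus. The second version held 2 samples each of MII oocytes (arrested at the second meiotic metaphase), oocyte NT embryos 2 d after transfer into MII oocytes and 4-cell controls 14 h after release from a mitotic block. It also held 3 arrays of blastomere NT embryos 14 h after transfer, and 2-cell control RNA of the first version hybridised again. Embryos without a genome, interphase NT embryos made with embryonic stem (ES) cells and a parthenote had 1 array per version or 1 in all, and take no part in the tests.

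Complex I (NADH dehydrogenase), complex II (succinate dehydrogenase), complex III (cytochrome bc1) and complex IV (cytochrome c oxidase) pass electrons to oxygen and, except for complex II, pump protons, and complex V (ATP synthase) makes ATP from the gradient. Most subunits are made from nuclear genes and imported, while a small core of complexes I, III, IV and V comes from mitochondrial DNA. Mouse oocytes and cleavage embryos carry their mitochondria from the growing oocyte and use pyruvate as a main fuel, and several complex IV subunits have tissue-restricted isoforms.

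Levels below are log2 of the normalised bead intensity, so a step of 1 is a doubling, and levels of different genes were not compared because probes differ. Array detection was even within most groups: 36.3 to 45.7% of probes were detected on samples of the groups tested on the first version except anaphase NT 15 (30.7%), and 33.8 to 44.0% on the second. Anaphase NT 15 also stood apart for the members, with 43 of 59 detected against 54 on anaphase NT 19 and 52 to 58 on every other sample of those groups. Blastomere NT arrays 1 and 3 differed with an SD of 0.204 log2 over probes, against 0.806 and 0.809 for the other pairs, and were counted as 1 sample. Labels call many of the other replicates biological duplicates and leave the rest unexplained. The spread that the p-values rest on is that among these samples and may in part be technical. In whole embryos and cell populations, fewer cells of a type and less RNA per cell cannot be told apart. Arrays were normalised to each other, so rises and falls are relative to the other RNA on an array. The amount of RNA per embryo was not among the values used here. A gene counts as changed at a limma adjusted p below 0.05 over all genes of its array version.

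Promoter windows of 6 members, picked by hand, are shown before the values. Of 62 member genes detected on either version, 50 had a RefSeq window (GRCm38.p6) of 250 bases before to 50 after a start. The NRF1 motif GCGCANGCG, read on both strands, lay in the windows of 10 of these 50 genes (20%). It lay in those of 7.03% of 27025 genes, which are all genes with a window, detected on these arrays or not. The YY1 motif ATGGCGGC lay in 5 (10%, against 2.6%), the GABPA motif CCGGAAGT in 3 (6%, against 4.31%) and the ERR motif TCAAGGTCA in 2 (4%, against 0.466%). All 5 genes with the YY1 motif were among the 23 complex I genes with a window, and 3 of these 23 held the NRF1 motif. NRF1, GABPA, ERR and YY1 are transcription factors known to act on nuclear genes of the respiratory chain. Capitals mark the motif found. Uqcrc1 (chr9:108936398-108936697, plus strand), Ndufaf5 (chr2:140170396-140170695, plus strand), Ndufaf4 (chr4:24897833-24898132, plus strand) and Cox6a1 (chr5:115348909-115349208, minus strand) hold the NRF1 motif. Where a run of capitals reads GCGCATGCGC, matches on both strands overlap. Ndufs7 (chr10:80249199-80249498, plus strand) holds the YY1 motif and Cox6b2 (chr7:4753045-4753344, minus strand) none of these letters. Uqcrc1, Ndufs7, Ndufaf5 and Cox6a1 rose between zygote and 2-cell embryo, and Ndufaf4 and Cox6b2 fell. The members with the largest rises, Ndufaf1 (5.08), Cox7c (4.51) and Ndufc1 (3.57), are not shown, and their windows held none of these motifs.
Uqcrc1: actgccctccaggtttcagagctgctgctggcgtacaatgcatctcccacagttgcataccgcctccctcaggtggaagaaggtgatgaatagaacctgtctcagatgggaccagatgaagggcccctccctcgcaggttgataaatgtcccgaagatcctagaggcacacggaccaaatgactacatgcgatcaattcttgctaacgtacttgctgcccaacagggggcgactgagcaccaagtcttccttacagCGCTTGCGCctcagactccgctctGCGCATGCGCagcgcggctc
Ndufs7: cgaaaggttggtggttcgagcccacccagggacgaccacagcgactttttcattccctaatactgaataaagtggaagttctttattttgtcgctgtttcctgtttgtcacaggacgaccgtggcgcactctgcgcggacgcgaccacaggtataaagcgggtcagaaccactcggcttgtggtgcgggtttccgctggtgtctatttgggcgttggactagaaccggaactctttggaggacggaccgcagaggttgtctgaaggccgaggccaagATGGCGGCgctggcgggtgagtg
Ndufaf5: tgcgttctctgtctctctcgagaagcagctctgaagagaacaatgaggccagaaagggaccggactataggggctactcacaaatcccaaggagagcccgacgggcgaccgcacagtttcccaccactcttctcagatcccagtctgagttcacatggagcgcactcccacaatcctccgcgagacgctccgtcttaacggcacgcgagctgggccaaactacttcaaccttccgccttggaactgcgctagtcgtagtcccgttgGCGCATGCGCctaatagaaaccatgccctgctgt
Ndufaf4: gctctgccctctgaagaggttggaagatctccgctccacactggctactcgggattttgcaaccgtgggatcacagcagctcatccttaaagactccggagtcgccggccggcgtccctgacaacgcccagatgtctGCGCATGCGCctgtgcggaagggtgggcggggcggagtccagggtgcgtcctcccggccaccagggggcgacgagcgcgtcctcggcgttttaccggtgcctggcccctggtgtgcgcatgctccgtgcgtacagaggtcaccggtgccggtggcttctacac
Cox6a1: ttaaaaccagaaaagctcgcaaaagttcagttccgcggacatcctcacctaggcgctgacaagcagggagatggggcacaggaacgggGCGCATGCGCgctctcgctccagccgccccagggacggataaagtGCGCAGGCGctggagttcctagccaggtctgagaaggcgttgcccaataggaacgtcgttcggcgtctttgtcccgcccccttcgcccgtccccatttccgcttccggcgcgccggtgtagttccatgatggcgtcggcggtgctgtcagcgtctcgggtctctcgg
Cox6b2: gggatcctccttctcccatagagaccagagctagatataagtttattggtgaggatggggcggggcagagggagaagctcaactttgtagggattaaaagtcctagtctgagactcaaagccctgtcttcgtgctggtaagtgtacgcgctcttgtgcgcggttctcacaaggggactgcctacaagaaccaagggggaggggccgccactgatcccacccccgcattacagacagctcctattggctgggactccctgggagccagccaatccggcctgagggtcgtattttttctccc
A match is a run of letters, not a bound site. Ndufaf4 and Ndufaf5 carry the same 10 letters and moved in opposite directions between zygote and 2-cell embryo. From MII oocyte to 4-cell embryo Ndufaf5 rose (4.53) and Ndufaf4 was not called (-0.73). The part of these motifs in the members' changes was not tested.

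Between M-phase zygotes and 2-cell controls, 29 of 59 members rose and 6 fell. Of all 8244 genes tested, 20.2% rose and 21.7% fell, so the members' share of 49.2% that rose lay above that background and the 10.2% that fell below it. The median member was 1.11 log2 higher and the median of all genes 0.00. Complexes I and V carried the rise, with medians of 1.47 and 1.35, complex III had 1.16, and complex IV was split at 0.01. With arrays scaled to a 75th percentile the complex IV median was 0.52, beside 1.37 for I, 1.49 for V and 0.31 for all genes. With the deposited series matrix values the complex IV median was 0.24, and without background correction 0.01. Of 11 oocyte and maternal genes 8 were lower and 1 higher in 2-cell controls, with a median of -2.12, and their part in the members' values was not tested. On the 1 slide that held both groups, the median of members was 1.32 (2 arrays against 1).

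In complex I, 15 of 23 genes rose and Ndufa10 fell. Ndufc1, a small subunit of the membrane arm, read 4.42, 4.69 and 5.15 in M-phase zygotes and 8.24 and 8.41 in 2-cell controls, a rise of 3.57 (SE 0.37, adjusted p = 3.93e-06). Ndufb9, another accessory subunit, read 4.58, 4.44 and 4.42 against 7.68 and 7.79 (3.25, SE 0.53, adjusted p = 1.94e-04). Both lay clear of the zygotes, in which Ndufb9 was detected on 1 of 3 arrays. The iron-sulphur subunits of the hydrophilic arm rose too, Ndufs7 by 2.94 (SE 0.35) and Ndufs8 by 2.27 (SE 0.29), while the flavoprotein subunit Ndufv1 rose by 1.14 (SE 0.28) and lost its call without 2-cell control 23. Ndufa10, an accessory subunit of the membrane arm, went the other way, from 11.24, 11.30 and 11.47 to 8.71 and 8.63, a fall of 2.66 (SE 0.27, adjusted p = 3.35e-06). Ndufv3 rose by 2.55 on its brightest probe, but its other detected probe gave -0.14 (adjusted p = 0.627). The 7 genes not called (Ndufa5, Ndufa8, Ndufb3, Ndufb8, Ndufb11, Ndufs3 and Ndufs4) lay between -0.58 for Ndufa8 and 0.90 for Ndufa5.

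None of the 3 measured complex II genes rose. Sdhc, a membrane anchor of succinate dehydrogenase, read 9.82, 9.24 and 9.64 in M-phase zygotes and 7.40 and 8.02 in 2-cell controls, a fall of 1.86 (SE 0.40, adjusted p = 0.00163). The other anchor, Sdhd, read 6.5, 6.69 and 6.46 against 6.49 and 6.31, and the iron-sulphur subunit Sdhb 6.68, 6.61 and 6.66 against 7.23 and 6.92. Neither passed the test.

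In complex III the core proteins moved in opposite directions. Uqcrc1 read 5.78, 5.21 and 6.84 in M-phase zygotes and 8.24 and 8.76 in 2-cell controls, a rise of 2.56 (SE 0.44, adjusted p = 3.13e-04). Uqcrc2 fell from 11.09, 11.16 and 10.73 to 8.88 on both arrays, by 2.12 (SE 0.47, adjusted p = 0.00233). Cyc1, the cytochrome c1 haem protein, rose by 2.12 (SE 0.45, adjusted p = 0.00168), from 5.85, 5.46 and 6.82 to 8.25 and 8.07. Uqcrfs1, the Rieske iron-sulphur protein, lay between 4.34 and 4.51 and was detected on none of these 5 arrays.

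Among the 5 complexes, complex IV held the largest rise and the largest fall, and its isoforms moved apart. Cox6a2, the muscle form of subunit 6a, read 10.09, 10.51 and 10.84 in M-phase zygotes and 6.06 and 4.29 in 2-cell controls, where 1 of 2 arrays detected it. That fall of 5.31 (SE 0.55, adjusted p = 4.32e-06) faced a rise of 1.25 in Cox6a1, the widespread form (SE 0.45, adjusted p = 0.0377), whose call was lost without any 1 of the 5 samples. Cox6b2, known as the testis form of subunit 6b, fell by 1.42 (SE 0.39, adjusted p = 0.00912) while Cox6b1 rose by 1.48 (SE 0.30, adjusted p = 0.00102). Cox7a1, the muscle form of subunit 7a, was detected on no M-phase zygote and read 6.91 and 6.24 in 2-cell controls, at least 3.91-fold higher (adjusted p = 0.00962). Cox7a2, its widespread form, read 8.58, 8.01 and 8.56 against 7.36 and 7.58 and did not pass. Cox7c, which has no isoform partner here, rose by 4.51 (SE 0.64, adjusted p = 6.42e-05), from 4.61, 4.67 and 6.85 to 9.73 and 10.04.

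**Figure D1:**
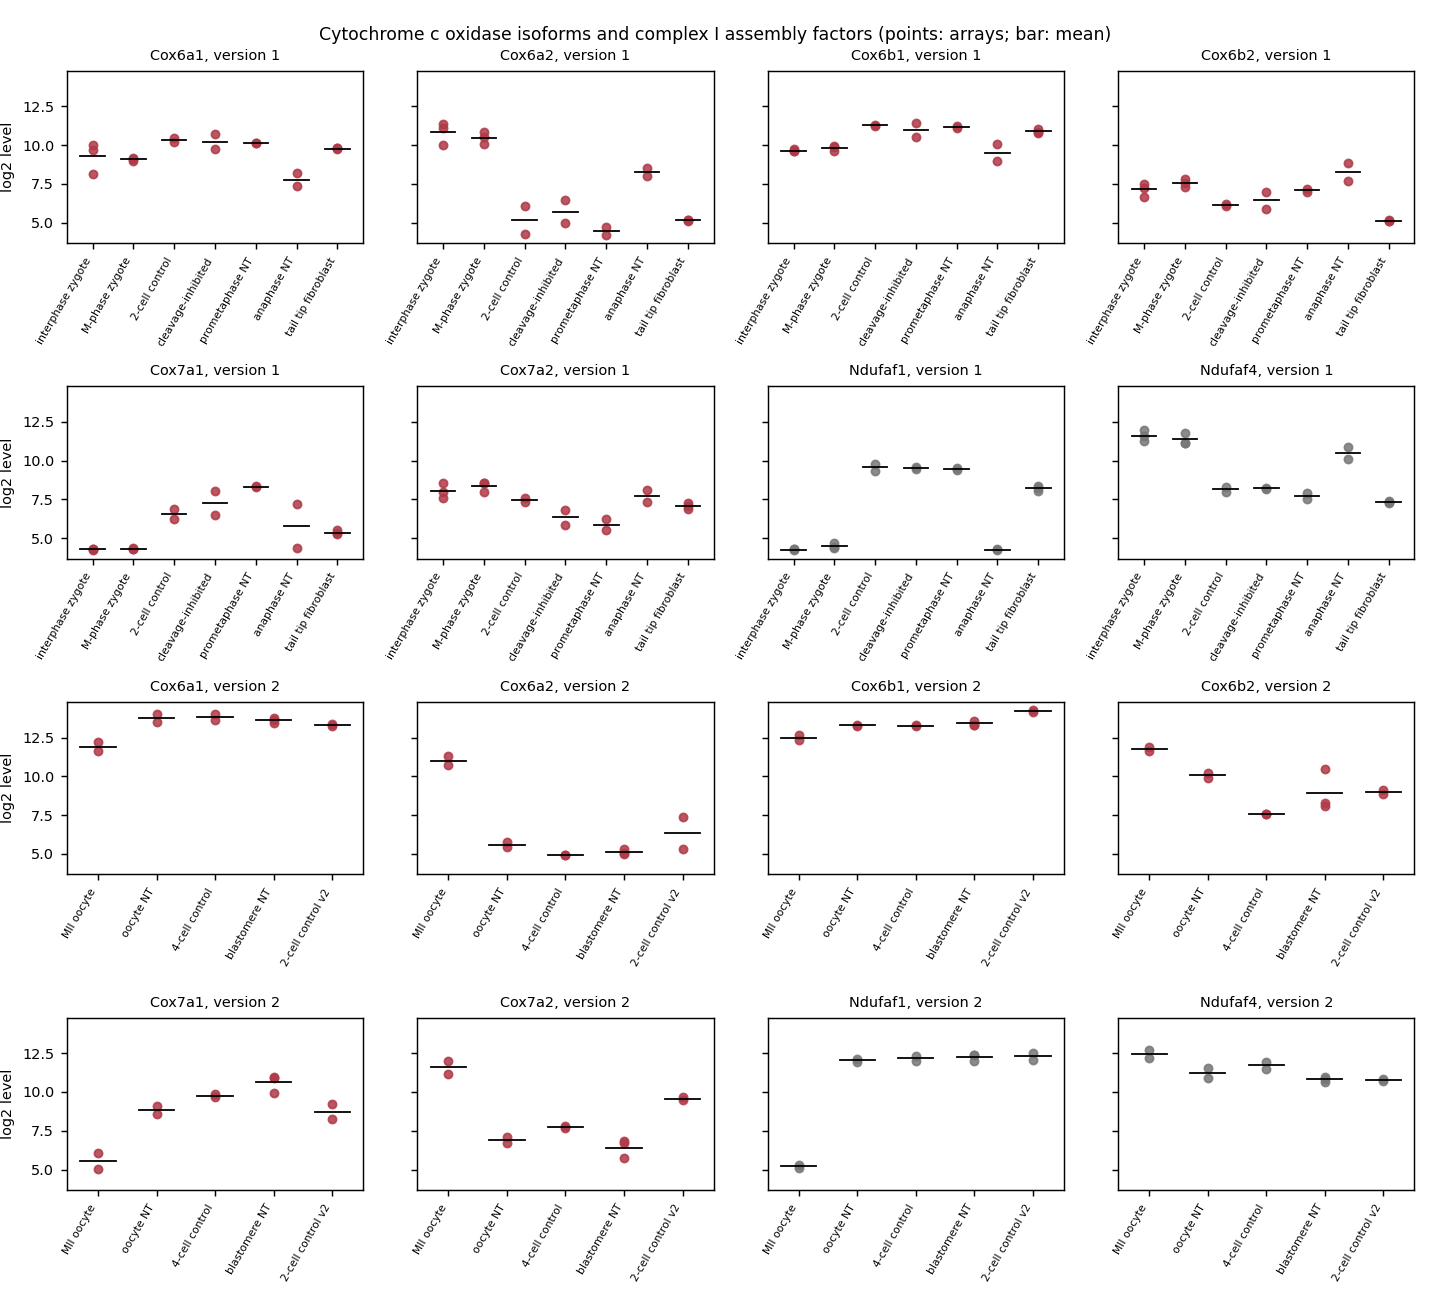
Log2 level of 6 cytochrome c oxidase isoform genes and 2 complex I assembly factors by array (points) and group mean over arrays (bars), on the first version (upper 8 panels) and second version (lower 8). Cox6a2 lies above 9.9 in every zygote and MII oocyte and below 7.4 in 2-cell and 4-cell controls, and Ndufaf1 separates the 2 anaphase NT arrays (4.26 and 4.29) from both prometaphase NT arrays (9.40 and 9.53).

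In complex V, 6 of 10 genes rose and none fell. Atp5g1 and Atp5g3, genes for the membrane c subunit, rose by 2.85 (SE 0.29, adjusted p = 3.42e-06) and 1.25 (SE 0.21, adjusted p = 2.33e-04). Atp5g1 read 8.56, 8.47 and 8.84 against 11.36 and 11.58. Atp5c1, the central stalk gamma subunit, rose by 1.60 (SE 0.23), and Atp5md, a small membrane subunit, by 2.65 (SE 0.61). The catalytic beta subunit gene Atp5b, already at 11.90 to 12.12 in M-phase zygotes, rose by 0.48 (SE 0.16, adjusted p = 0.0253), and that call was lost without M-phase zygote 24 or 2-cell control 23. Atp5a1, the alpha subunit gene, differed by 0.57 and did not pass.

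Of the assembly factors, Ndufaf1 rose and Ndufaf4 fell, each with no overlap between groups. Ndufaf1 read 4.43, 4.36 and 4.70 in M-phase zygotes, with 1 of 3 arrays detecting it, and 9.80 and 9.35 in 2-cell controls (5.08, SE 0.23, adjusted p = 7.42e-09). Ndufaf4 read 11.14, 11.81 and 11.15 and then 8.33 and 7.96 (-3.22, SE 0.28, adjusted p = 1.04e-06). Ndufaf5, known to hydroxylate the Ndufs7 protein, rose by 3.18 (SE 0.29, adjusted p = 1.61e-06), and its second probe by 2.82. Of 28 measured genes of respiratory chain assembly, a list that includes the member assembly factors, 9 rose and 5 fell. In lists without members, 8 rose and 2 fell of 22 protein import genes, and 1 and 4 of 9 genes of mitochondrial DNA and transcription. Of 17 genes of the tricarboxylic acid cycle and pyruvate dehydrogenase 3 rose and 4 fell. Over all genes 20.2% rose and 21.7% fell. Of 8 regulators of mitochondrial genes 4 rose and 3 fell. Nrf1 rose by 3.57 (SE 0.29, adjusted p = 4.88e-07) and Gabpa went from undetected on all 3 zygote arrays to a mean of 8.96 (adjusted p = 2.32e-04), while the coactivator Ppargc1b fell by 2.56 (SE 0.34, adjusted p = 3.45e-05). Of 7 carriers and porins 2 rose and 2 fell, among them the phosphate carrier Slc25a3 at 2.28 and the ADP/ATP carrier Slc25a5 at -1.06.

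**Figure D2:**
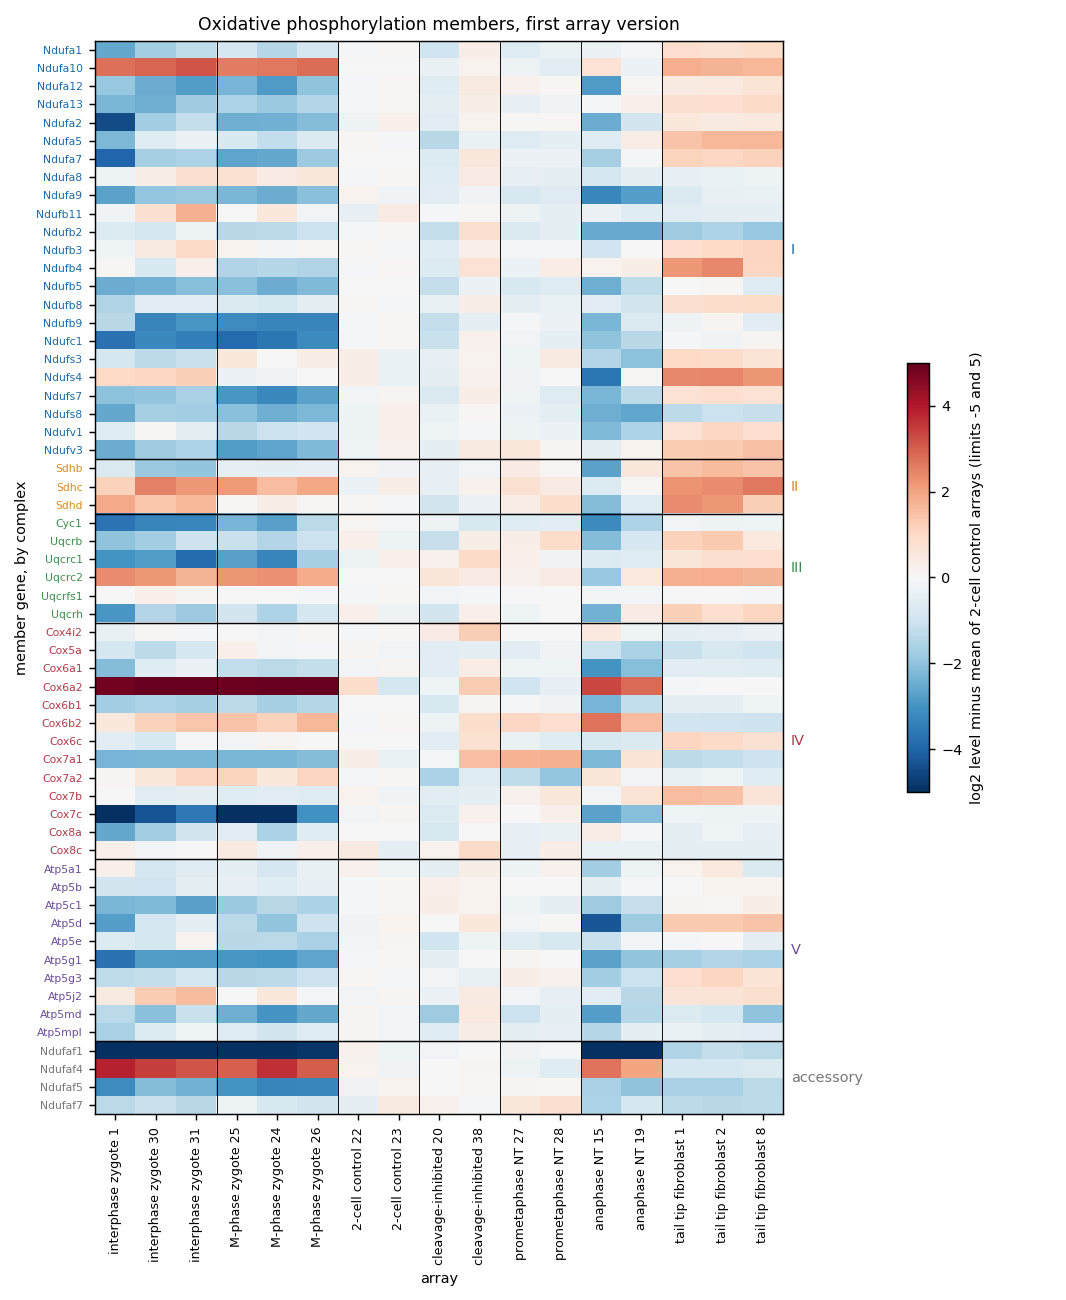
Each row is a member gene, grouped by complex, and each column a sample of the first version; colour is the log2 level minus the mean of the 2-cell control arrays, limited to -5 and 5. Zygotes are mostly blue in complexes I and V with red rows for Ndufa10, Uqcrc2, Cox6a2 and Ndufaf4, and anaphase NT 15 is bluer than anaphase NT 19.

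Earlier and sideways comparisons moved few members. Between interphase and M-phase zygotes 2 of 59 members rose, Ndufs3 by 1.36 (SE 0.29, adjusted p = 0.0255) and Cox5a by 1.02 (SE 0.19, adjusted p = 0.0137), and none fell; over all genes 1.7% rose and 1.04% fell. Neither call held under every other processing or without every sample: the count of members called ran from 0 to 7 as samples were left out, the 7 without interphase zygote 1. With array scaling to a 75th percentile the split was 0 higher and 1 lower. Between cleavage-inhibited embryos and 2-cell controls, 0 of 59 members passed limma's test and 3 had an unadjusted p below 0.05, while 0.121% of all genes rose and 0.109% fell. No other fit run called a member there. The median member difference was -0.12 with both samples and lay between -0.49 and 0.20 with 1 sample left out. Cleavage-inhibited 20 read below cleavage-inhibited 38 for most members: Cox7a1 read 6.52 and 8.06, and Atp5md 6.48 and 8.76. These arrays lay on different slides, and neither on that of the controls. A repeat hybridization of a cleavage-inhibited sample on the controls' slide had a median of 0.20 over members, with 15 of 59 below the control mean. It read 8.14 for Cox7a1 and 9.18 for Atp5md. The labels did not tie it to either array, so slide and sample cannot be told apart.

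Tail tip fibroblasts, the donor cells, differed from 2-cell controls by complex. These groups shared no slide, so slide and cell type cannot be told apart. Of 59 members 16 were higher and 9 lower, against 25.2% and 23.8% of all genes, where the members' shares were 27.1% and 15.3%. Complex I had 10 higher and 2 lower, complex II 2 of 3 higher, and all 4 assembly factors were lower. Sdhc read 9.98, 10.06 and 10.34 in fibroblasts against 7.40 and 8.02 in 2-cell controls (2.41, SE 0.40, adjusted p = 1.57e-04), and Sdhd 8.77, 8.55 and 7.59 against 6.49 and 6.31 (1.90, SE 0.44, adjusted p = 0.00226). Ndufs4, an accessory subunit of the hydrophilic arm, was 2.35 higher (SE 0.71, adjusted p = 0.0134), and Ndufa10 1.71 higher (SE 0.27, adjusted p = 1.11e-04). Atp5g1 was 1.57 lower (SE 0.29, adjusted p = 4.20e-04) while Atp5g3 was 0.86 higher, a direction that turned (-0.45) when arrays were scaled to a 75th percentile. That scaling moved the median of all genes to -0.93 and gave 10 members higher and 20 lower, so directions here depend on the scale. All 15 fibroblast markers measured, and all 10 macrophage and leukocyte markers measured, were detected on every fibroblast array, and the part of the latter cells in these values was not tested.

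No member passed the test between prometaphase NT embryos and 2-cell controls. The count was 0 of 59 in limma, with 4 members at an unadjusted p below 0.05 and 0 called in every other fit run, while 1.6% of all genes rose and 0.509% fell. The median member difference was -0.11, and both groups lay on 1 slide. In complex I the median was -0.30, and both prometaphase NT samples lay below both controls for 15 of 23 genes and above both for 0. Over all 8244 genes they lay below for 2128 and above for 1888. The extremes were the subunit 7a isoforms: Cox7a1 read 8.30 and 8.36 against 6.91 and 6.24 in 2-cell controls (1.75), and Cox7a2 6.22 and 5.52 against 7.36 and 7.58 (-1.60), and neither passed. Of 15 fibroblast markers 3 were higher and 0 lower in prometaphase NT embryos than in 2-cell controls. On the prometaphase NT arrays 7 and 9 were detected, against 3 on each control, and their part in the members' values was not tested. Against M-phase zygotes, 28 members were higher and 7 lower, with 22.7% and 21.8% of all genes, and a median of 0.87. Ndufaf1 read 9.40 and 9.53, Cox6a2 4.19 and 4.75 and Ndufa10 8.44 and 8.16, each on the 2-cell side of the M-phase zygotes. Cox7a2 was 2.51 lower than in M-phase zygotes (SE 0.38, adjusted p = 9.37e-05), and Cox7a1 at least 13.2-fold higher (adjusted p = 1.26e-04). Cox6a2 was 6.01 lower (SE 0.55, adjusted p = 1.32e-06).

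Anaphase NT embryos of the same age had 3 members higher and 23 lower than 2-cell controls. Over all genes 17% rose and 18.3% fell, so the 39% of members that fell lay above the background and the 5.08% that rose below it. The median member difference was -0.98 and that of all genes 0.04. By complex the medians were -1.40 for I (8 of 23 lower), -1.06 for II (1 of 3), -0.84 for III (2 of 6), -0.32 for IV (4 lower and 2 higher of 13) and -1.18 for V (5 of 10). With undetected genes at their bound, complex IV came to 0. The size rests in part on anaphase NT 15: without it the median was -0.59 with 3 higher and 18 lower, and without anaphase NT 19 it was -1.63 with 4 and 34. Without anaphase NT 15 the medians were -0.59 for complex I, -0.39 for III, -0.21 for IV and -1.10 for V, and that of complex II turned to 0.08. Without anaphase NT 19 they were -1.68 for I, -2.17 for II, -2.04 for III, -0.32 for IV and -1.70 for V. The 2 anaphase NT arrays and the 2-cell controls lay on different slides. A repeat hybridization of an anaphase NT sample on the slide of the controls had a median of -0.50 over members. On it 41 of 59 members were below the control mean, and the same count over all genes was not taken. The labels did not tie that repeat to either array, but its values followed anaphase NT 19 where the 2 arrays split. Ndufs4 read 8.21 on the repeat, 8.09 on anaphase NT 19 and 4.36 on anaphase NT 15. Sdhb read 7.65, 7.64 and 4.39 in that order, and Cox7a1 7.33, 7.24 and 4.34. Singly, anaphase NT 19 had a median of -0.59 and anaphase NT 15 of -1.63. The slide of the controls thus held no repeat that read like anaphase NT 15. When only these 4 samples were fitted, 6 members were called, all lower.

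Among complex I genes, Ndufa9, a subunit at the junction of the arms, read 6.5 and 7.03 in anaphase NT embryos and 9.95 and 9.59 in 2-cell controls (-3.01, SE 0.32, adjusted p = 1.06e-05). Ndufs8 read 7.32 and 7.13 against 9.51 and 9.98 (-2.52, SE 0.32, adjusted p = 4.17e-05). Ndufb2 was detected on neither anaphase NT array and was at least 4.71-fold lower. Other complex I genes did not follow: Ndufa13, tied to both respiration and cell death, read 10.77 and 11.13 against 10.82 and 10.93, and Ndufa10 9.40 and 8.38 against 8.71 and 8.63. Some members split the pair of anaphase NT samples, among them Ndufs4 at 4.36 and 8.09 and Ndufa12 at 4.88 and 7.79, whose second values lay beside the controls (7.66 to 8.30 and 7.67 to 7.78). In complex II, Sdhd read 4.23 and 5.75 against 6.49 and 6.31 (-1.41, SE 0.48, adjusted p = 0.0343), a call lost without anaphase NT 15 or either 2-cell control. Sdhb read 4.39 and 7.64 against 7.23 and 6.92 and did not pass. Sdhc read 7.02 and 7.79, near the controls.

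In complex III, Cyc1 read 4.97 and 6.64 in anaphase NT embryos against 8.25 and 8.07 (-2.36, SE 0.50, adjusted p = 0.00205), while Uqcrc1 at 7.81 and 7.85 did not pass. In complex V, Atp5g1 read 8.81 and 9.48 against 11.36 and 11.58 (-2.32, SE 0.32, adjusted p = 7.53e-05), within the range of M-phase zygotes (8.47 to 8.84) on 1 array and above them on the other. Atp5d, the central stalk delta subunit, read 4.51 and 7.0 against 8.62 and 8.97 (-3.04, SE 0.74, adjusted p = 0.00534), and lost its call without anaphase NT 15. Complex IV again carried both directions. Cox6a1 fell to 7.35 and 8.19 from 10.19 and 10.46 (-2.55, SE 0.49, adjusted p = 0.00111), and Cox6b1 to 8.96 and 10.06 from 11.26 and 11.30 (-1.77, SE 0.32, adjusted p = 7.70e-04). Their partners stayed above the controls: Cox6a2 read 8.53 and 8.00 (3.09, SE 0.61, adjusted p = 0.00126) and Cox6b2 8.84 and 7.69 against 6.07 and 6.18 (2.13, SE 0.43, adjusted p = 0.00144). Cox6a2 was still 2.21 below M-phase zygotes (SE 0.55, adjusted p = 0.00625).

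The assembly factors split in anaphase NT embryos. Ndufaf1 was detected on neither anaphase NT array (4.26 and 4.29) and was at least 25.7-fold lower than in 2-cell controls (adjusted p = 1.76e-08), at the level of the zygotes. Ndufaf4 read 10.85 and 10.12 against 8.33 and 7.96 (2.34, SE 0.31, adjusted p = 6.27e-05). Of 8 regulators of mitochondrial genes 1 was higher and 4 lower, with Nrf1 2.16 lower (SE 0.32, adjusted p = 1.35e-04) and Ppargc1b 1.80 higher (SE 0.37, adjusted p = 0.00181). Of 22 protein import genes 12 were lower and none higher, and of 17 genes of the tricarboxylic acid cycle and pyruvate dehydrogenase 3 were lower and 4 higher. Other RNA moved beside these values. Of 11 oocyte and maternal genes 8 were higher and 2 lower than in 2-cell controls, and their summed linear level was 23260 and 27170 against 9886 and 10170. Of 15 fibroblast markers 9 were higher, with 9 and 12 detected against 3 on each control, and their part in the members' values was not tested.

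Set directly against prometaphase NT embryos, anaphase NT embryos had 4 members higher and 23 lower, with 19.3% and 20.9% of all genes; the 2-cell control takes no part in this difference, and the groups lay on different slides. The median member lay at -0.96, at -0.51 without anaphase NT 15 and at -1.60 without anaphase NT 19. Ndufaf1 was at least 23.8-fold lower (adjusted p = 1.73e-08), Ndufa9 2.28 lower (SE 0.32, adjusted p = 9.17e-05), Atp5g1 2.40 lower (SE 0.32, adjusted p = 5.58e-05) and Cox7a1 2.54 lower (SE 0.68, adjusted p = 0.00912), the last read from 4.34 and 7.24 against 8.30 and 8.36 and lost without anaphase NT 15. Cox6a2 (3.79, SE 0.61, adjusted p = 2.45e-04), Ndufaf4 (2.77, SE 0.31, adjusted p = 1.60e-05), Cox7a2 (1.84, SE 0.41, adjusted p = 0.00290) and Cox6b2 (1.19, SE 0.43, adjusted p = 0.0403) were higher. Without anaphase NT 15, 18 members were called in place of 27, and without anaphase NT 19, 38. Of 15 fibroblast markers 8 were higher and 0 lower in anaphase NT than in prometaphase NT embryos. Of 11 oocyte and maternal genes 8 were higher and 3 lower, and the part of either list in the members' values was not tested. Against M-phase zygotes, anaphase NT embryos had 10 members higher and 13 lower, beside 19.3% and 20.3% of all genes, and a median of -0.22. The direction of that median rests on 1 sample: it was 0.26 with 15 higher and 8 lower without anaphase NT 15, and -0.45 with 7 and 16 without anaphase NT 19. The higher ones included Ndufv3, Ndufc1, Cox7c and Uqcrc1, and the lower ones Ndufa10, Uqcrc2, Sdhc and Sdhd. That comparison shares its anaphase NT samples with the 2 before it.

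**Figure D3:**
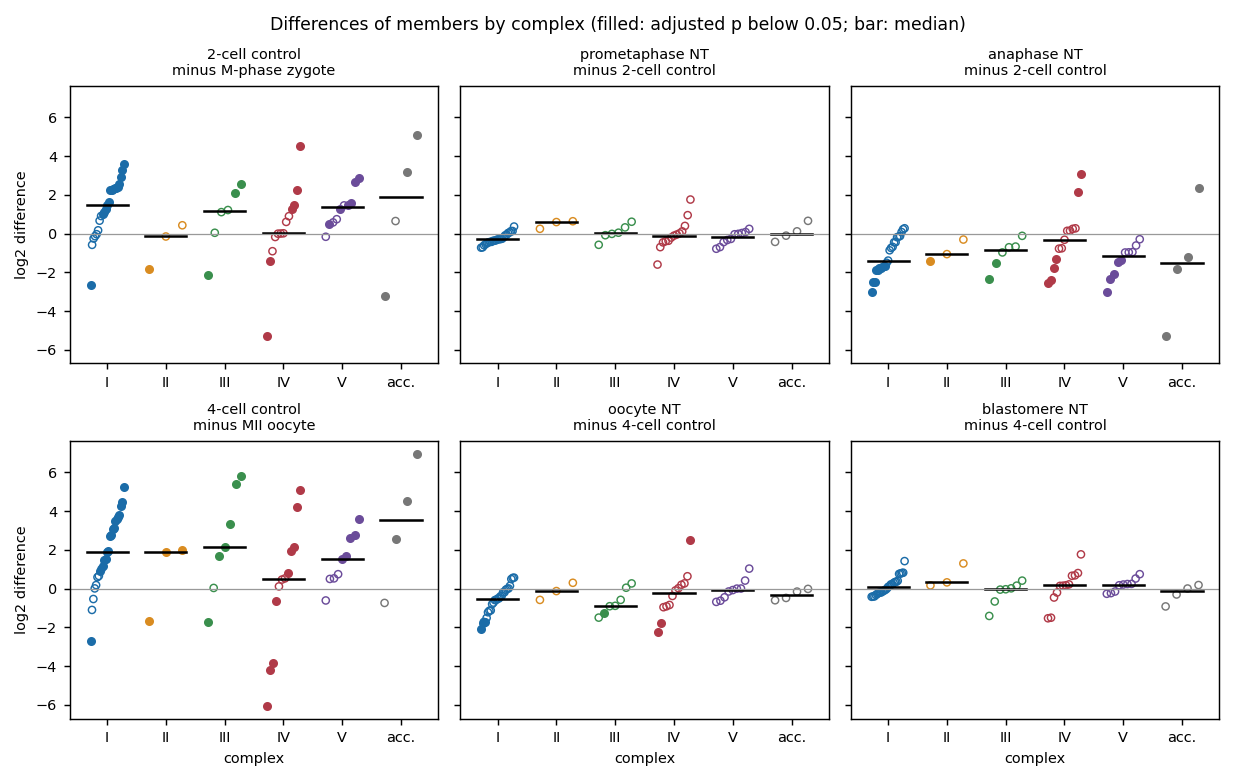
Log2 difference of every member (points, filled where the adjusted p is below 0.05) by complex, with the median as a bar, in 6 comparisons. Points spread above 0 in complexes I and V for 2-cell against M-phase and 4-cell against MII, sit near 0 for prometaphase NT, and lie mostly below 0 for anaphase NT except in part of complex IV and for Ndufaf4.

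On the second array version, 37 of 60 members were higher in 4-cell controls than in MII oocytes and 7 lower. Over all 7181 genes 26.5% were higher and 26.8% lower, so the 61.7% of members that rose lay above the background. The median member was 1.67 higher, or 1.53 with undetected genes at their bound. With the main normalisation all 5 complexes had a positive median, from 0.50 for complex IV to 2.15 for complex III, with 1.90 for I, 1.92 for II and 1.54 for V. With undetected genes at their bound, complex II came to 0.79 and complex IV to 0.33. With arrays scaled to a 75th percentile, which moved the median of all genes to -0.60, the split was 32 higher and 12 lower, the median of complex IV turned to -0.40, and Cox6b1 and Ndufa13 turned direction. Of 11 oocyte and maternal genes 9 were lower and 2 higher, and their part in the members' values was not tested.

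Large rises were found in complexes I, III and IV and in the assembly factor Ndufaf1, which was undetected on both MII oocyte arrays (5.09 and 5.31) and read 12.02 and 12.33 in 4-cell controls, at least 50.7-fold higher (adjusted p = 2.84e-07). Uqcrc1 read 6.38 and 6.52 against 12.23 and 12.36 (5.84, SE 0.38, adjusted p = 7.94e-07), and Cyc1 was at least 16.7-fold higher (adjusted p = 3.86e-06). Ndufs8 rose by 5.26 (SE 0.57, adjusted p = 2.03e-05), Ndufa12 by 4.50 (SE 0.51) and Cox7c by 5.09 (SE 0.40, adjusted p = 2.20e-06). Cox6a2 read 11.30 and 10.71 in MII oocytes and was undetected in 4-cell controls, at least 31.2-fold lower (adjusted p = 1.39e-05). Cox6b2 fell by 4.19 (SE 0.62), while the widespread Cox7a2 read 12.00 and 11.15 in MII oocytes and 7.83 and 7.65 in 4-cell controls (SE of the fall 0.51, adjusted p = 8.24e-05) and Cox7a1 was at least 9.42-fold higher (adjusted p = 9.17e-05). Ndufa10, Uqcrc2 and Sdhc fell by 2.71, 1.71 and 1.66. Sdhb rose by 1.98 on its brightest probe (SE 0.62, adjusted p = 0.0194) with a second probe at -0.61, and Sdhd was at least 1.73-fold higher (adjusted p = 0.00866). Cox8c, known as the testis form of subunit 8, was at least 1.70-fold higher, and Cox8a fell by 0.61 (SE 0.22, adjusted p = 0.0351). The Cox8a call was lost without any 1 of the 4 samples, and that of Cox8c without MII oocyte 1 or 4-cell control 2.

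Of 57 members measured on both versions, 28 rose from M-phase zygote to 2-cell and 36 were higher in 4-cell controls than in MII oocytes. The 24 that did both were 24 of the 28 and 24 of the 36, which is 85.7% and 66.7%. Of the 6 and 7 that fell, 5 fell in both (83.3% and 71.4%). No member was called in opposite directions. Over all 6592 genes tested on both versions, 1131 rose in both, 70.2% of those that rose by the 2-cell stage and 61.5% of those higher in 4-cell controls. Likewise 1012 fell in both (61.9% and 55.3%), and 43 rose on the first version and fell on the second, with 82 the other way. The members' shares were not tested against these. These comparisons share no sample. By complex, 13 of 23 complex I genes rose in both, 0 of 3 in complex II, 2 of 6 in III, 4 of 12 in IV and 3 of 9 in V.

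**Figure D4:**
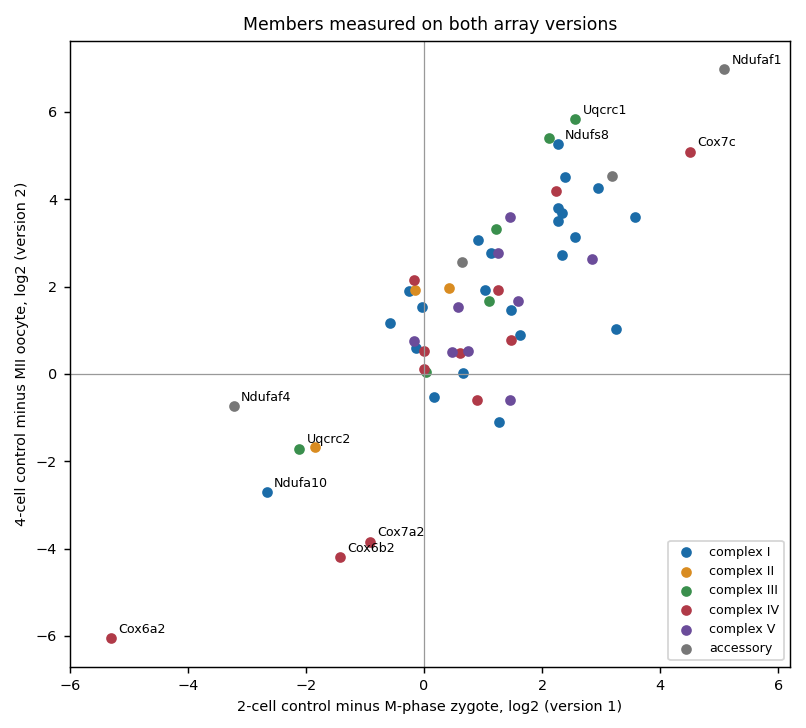
Log2 difference of each of 57 members in 2-cell against M-phase (first version, horizontal) and 4-cell against MII (second version, vertical), coloured by complex. Most are above 0 on both axes, and Cox6a2, Cox6b2, Cox7a2, Ndufa10, Uqcrc2, Sdhc and Ndufaf4 are below 0 on both.

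Oocyte NT embryos had 29 members higher and 9 lower than MII oocytes, beside 26% and 26.4% of all genes, with a median of 1.08. With scaling to a 75th percentile the split was 21 higher and 15 lower and the median 0.22, with 0.22 for complex I and -1.35 for complex IV (0.98 and -0.17 before). That scaling moved the median of all genes to -0.75. Of 11 oocyte and maternal genes 9 were lower and none higher, and their part was not tested. Ndufaf1 read 12.11 and 11.95 (at least 45.7-fold higher, adjusted p = 3.32e-07), Uqcrc1 was 5.26 higher (SE 0.38) and Atp5g1 3.67 higher (SE 0.34, adjusted p = 8.96e-06). Cox6a2 was undetected and at least 36.5-fold lower (adjusted p = 3.76e-05), and Cox7a2 4.68 lower (SE 0.51, adjusted p = 2.63e-05). Against 4-cell controls, whose time is counted from a different event, 1 member was higher and 6 lower, beside 6.78% and 4.3% of all genes, with a median of -0.42. The lower ones were Ndufa1, Ndufa5, Ndufa8, Uqcrc2, Cox6c and Cox8c. Cox6c read 11.95 and 12.15 against 13.91 and 13.76 (-1.79, SE 0.24, adjusted p = 0.00250). Ndufa5, a subunit of the hydrophilic arm, read 10.20 and 10.18 against 12.16 and 12.38 (-2.08, SE 0.41, adjusted p = 0.0131). Cox6b2 was the higher one, at 10.23 and 9.91 against 7.59 and 7.56 (2.50, SE 0.62, adjusted p = 0.0302), a call lost without any 1 of the 4 samples. Only Cox6c kept its call without oocyte NT 1 or either 4-cell control. Of 11 oocyte and maternal genes 6 were higher and 1 lower in oocyte NT embryos, and their part in these values was not tested.

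Blastomere NT embryos had 0 of 60 members called against 4-cell controls in limma and in every other fit run, with 7 at an unadjusted p below 0.05, while 2.07% of all genes were higher and 0.738% lower. The median member difference was 0.15, and 0.08 on the 1 slide that held both. Cox6b2 lay at the high end (8.28, 10.5 and 8.09 against 7.59 and 7.56), with array 2 the highest. At the low end were Cox8c (6.23, 5.18 and 6.43 against 6.98 and 7.58), Cox7a2 (6.69, 5.71 and 6.85 against 7.83 and 7.65) and Cyc1 (9.16, 9.16 and 9.21 against 10.64 and 10.52). Array 2 detected neither Cox8c nor Cox7a2. Cox8c, Cox7a2 and Cyc1 lay below both controls on all arrays without passing, Cyc1 at -1.41. Of 7 macrophage and leukocyte markers 4 were higher in blastomere NT embryos, with 6 detected on every array, and their part in the members' values was not tested.

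Finally, 4-cell controls had 10 members higher and 5 lower than the 2-cell control RNA on the same version, beside 9.26% and 9.82% of all genes. Uqcrb, the ubiquinone-binding protein of complex III, read 11.97 and 12.21 against 9.97 and 8.95 (2.63, SE 0.44, adjusted p = 0.00312), Ndufa5 12.16 and 12.38 against 9.99 and 9.64 (2.45, SE 0.41, adjusted p = 0.00310) and Atp5d 12.99 and 13.24 against 10.85 and 11.24 (2.07, SE 0.35, adjusted p = 0.00303). These 3 calls held without any 1 of the 4 samples. The lower ones were Ndufb2, Ndufb5, Cox7a2, Cox7b and Cox6b1. Complex IV had 3 lower and none higher. The 2-cell arrays were the only ones on their slide besides a cleavage-inhibited one, so slide and stage cannot be told apart, and as single samples were left out the count ran from 3 to 7. With scaling to a 75th percentile the split was 10 higher and 9 lower.

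**Figure D5:**
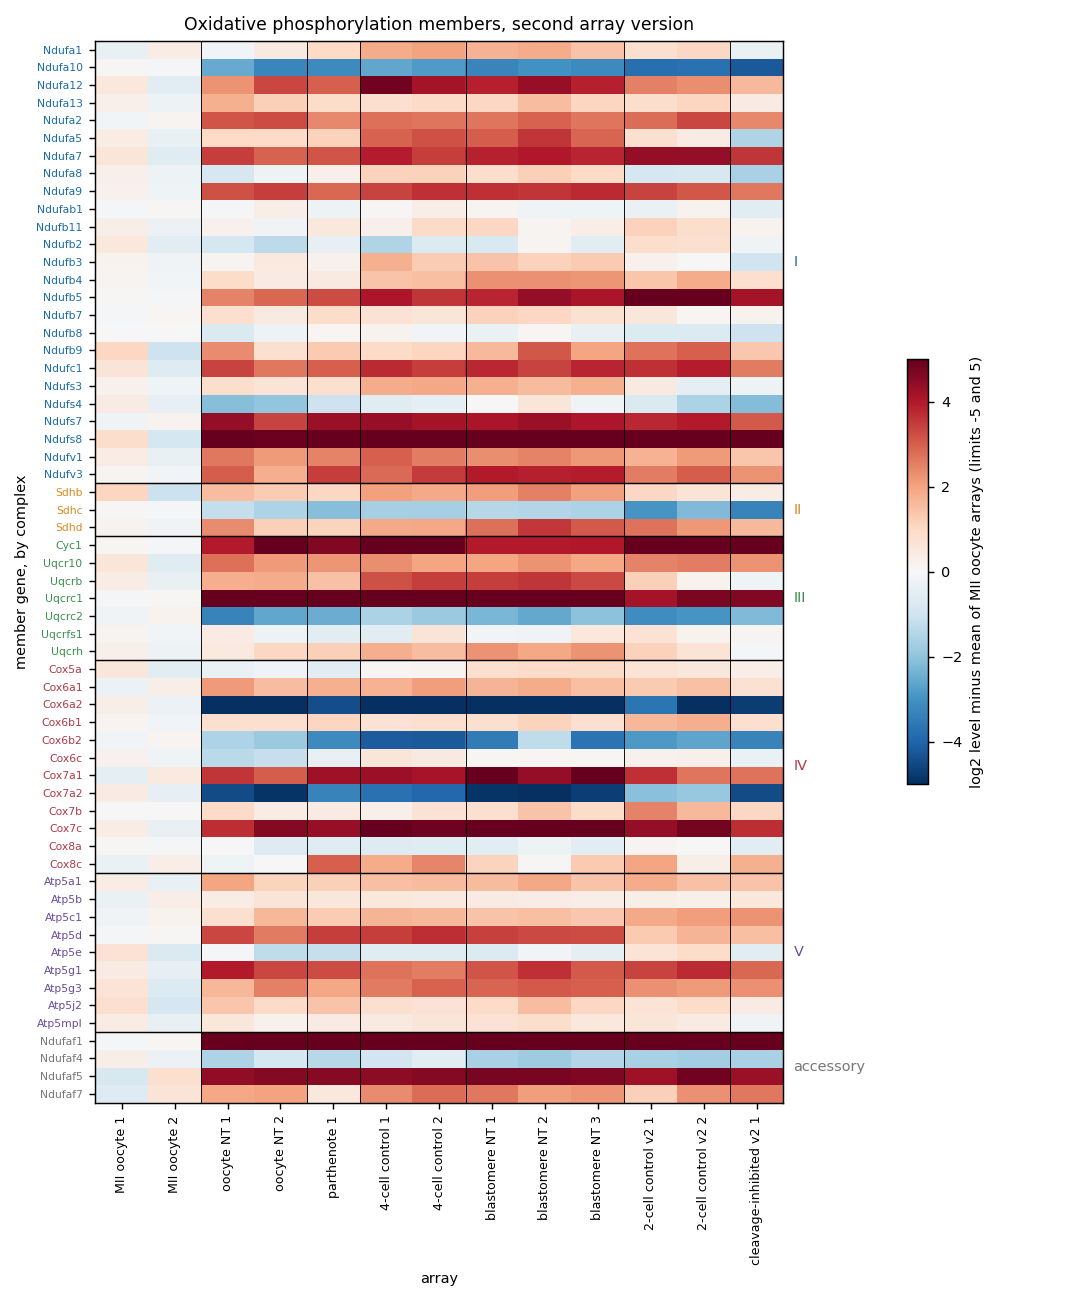
Rows are member genes by complex and columns are arrays of the second version without the embryos lacking a genome and the ES cell transfers; colour is the log2 level minus the mean of the MII oocyte arrays, limited to -5 and 5. Oocyte NT, 4-cell and blastomere NT columns share the red rows of complexes I, III and V and the blue rows for Cox6a2, Cox6b2, Cox7a2 and Ndufa10.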

How the data were processed

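RNA of mouse embryos, MII oocytes and fibroblasts was isolated with a PicoPure kit, amplified and biotin-labelled, per the labels' protocols. The authors deposited bead intensities and detection p-values for every probe and array, made with GenomeStudio per the submitters' processing notes, not normalised between arrays. Per the file headers, the deposited series matrix also holds intensities, with scale and centring unstated; it served as an alternative. R 4.3.3 with limma 3.58.1 normalised each version alone by neqc (normexp with negative controls inferred from detection p-values, offset 16, quantile normalisation, log2). Probes detected on 2 or more arrays were kept and each gene took its brightest one, giving 8244 and 7181 genes. Group-means models were fitted to 19 and 14 samples (10 and 5 residual degrees of freedom) with moderated variances, and p-values were adjusted by Benjamini-Hochberg per comparison, two-sided. Repeat hybridizations on the first version were left out of the fit. A gene undetected in a whole group is given as "at least N-fold", against the higher of each array's lowest detected signal and the gene's own. The number of arrays limits the precision. The description of 4-cell control 2 gives a slide other than its title, and the description was used.

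Any member may be named; full values went to the largest changes per complex and direction, complex II, isoform pairs and chosen core subunits. Members, lists, tests and this rule were chosen with earlier results of these data known. Of the lists, cytochrome c and mitochondrially encoded genes had no gene tested. Cumulus and granulosa genes had 0 higher and 1 lower of 9 in anaphase NT against 2-cell controls.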

Additional observations from a re-analysis of the deposited data

Results flagged for a closer look

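Anaphase NT and prometaphase NT embryos both received fibroblast nuclei at mitosis and were taken at the same age. In the test of the difference between them 27 of 59 members passed, 4 higher (6.78%) and 23 lower (39%) in anaphase NT. Over all genes 19.3% were higher and 20.9% lower, so only the share of lower members lay above the background. A fit of only these 2 groups called 9 members. Values are given above.

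Arrays outside the tests carried some member signals above the zygotes and more below them. On ES interphase NT 44, 4 members were detected and lay over 2 log2 above every M-phase zygote: Ndufaf1 (8.75 against 4.36 to 4.70), Cox6b2 (10.72 against 7.29 to 7.78), Cox7c (8.91 against 4.61 to 6.85) and Ndufa7 (9.57 against 6.38 to 7.20). On genome-less 49 there were 2, Cox4i2 (7.22 against 4.84 to 5.08) and Ndufv1 (10.20 against 7.48 to 7.94). Detected or not, 10 members on ES interphase NT 44 and 15 on genome-less 49 lay over 2 log2 below every M-phase zygote. The median member difference from M-phase zygotes was 0.05 and -1.06. The same counts over all genes were not taken. Both arrays were faint, with 33 and 25 of 59 members and 20.8 and 18.8% of probes detected, and each is a single array with no replicate.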

How the results depend on the processing

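Of 277 member calls, no background correction kept 272, no detection filter 263, series matrix values 252 and 75th percentile scaling 245. That scaling ended 27 and turned 5: Atp5g3 in fibroblasts against 2-cell (-0.45), Cox6b1 and Ndufa13 in 4-cell against MII (-0.051 and -0.005), and Atp5j2 and Cox6b1 in oocyte NT against MII (-0.12 and -0.44). It moved the median of all genes to 0.31 in 2-cell against M-phase, 0.47 in anaphase against prometaphase NT and -0.75 in oocyte NT against MII. Slide as a random block kept all 277. Fits of only the groups compared kept 224 and had few degrees of freedom. They called 0 members in M-phase against interphase zygotes, 42 in fibroblasts against 2-cell, 6 in anaphase NT against 2-cell, 9 in anaphase against prometaphase NT, 15 in anaphase NT against M-phase and 13 in oocyte NT against 4-cell. Scaling gave 1 in M-phase against interphase and 12 in oocyte NT against 4-cell. Matrix values gave 0 in M-phase against interphase and 16 in fibroblasts against 2-cell, and no filter gave 4 in oocyte NT against 4-cell. With each sample left out in turn, members called ran from 0 to 7 in M-phase against interphase, 16 to 22 in fibroblasts against 2-cell, 21 to 38 in anaphase NT against 2-cell, 18 to 38 in anaphase against prometaphase NT, 15 to 23 in anaphase NT against M-phase, 1 to 6 in oocyte NT against 4-cell and 3 to 7 in 4-cell against 2-cell; the cause was not tested. Where 1 sample remained in a group, it was assumed to vary like the other groups. Normalising without the 2 faintest arrays, and the values of repeat hybridizations and of single anaphase NT arrays, were chosen after seeing the data. That normalisation kept all 173 first-version calls. No paired analysis was possible because replicate numbers of the groups compared were given in accession order or do not recur.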

Other observations

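On the second version, the single arrays of embryos without a genome for 1 d and of ES interphase NT embryos lay on the oocyte side of several members. Ndufaf1 was undetected on both (4.85 and 5.11), as on MII oocytes (5.09 and 5.31), and read 12.54 and 12.04 in 2-cell control RNA. Cox6a2 read 11.98 and 10.80, against 11.30 and 10.71 in MII oocytes and 7.36 and 5.30 in 2-cell RNA. Over all 60 members the array without a genome had a median difference of -0.85 from MII oocytes and -2.57 from 2-cell RNA, and the ES interphase NT array -0.39 and -2.11. Complex V of the array without a genome lay at -1.57 from MII oocytes, complex III at -1.88, complex II at -1.06, complex I at -0.49 and complex IV at -0.46. Neither array has a replicate on this version, and the MII oocytes and the 2-cell RNA both lay on other slides.

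The first-version ES interphase NT array differed from its second-version counterpart, a separate sample per the labels: Ndufaf1 was detected on the first (8.75) and not on the second (5.11), while Ndufaf4 was high on both (11.66 and 12.96). The parthenote, taken 2 d after activation, had a median difference of -0.38 from 4-cell controls over 60 members, with none over 2 log2 away from both control arrays. Its Ndufaf1 level was 12.30 and its Cox6a2 level 6.56.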
